A study of Homo sapiens with 18 samples.

Results

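The genes examined were 9 genes of MHC class I antigen presentation, HLA-B, HLA-C, HLA-E, B2M, TAP1, TAP2, TAPBP, ERAP1 and NLRC5, out of the 58815 genes in the deposited counts table. The rule names them by gene symbol and sets no threshold on a measured value. The RNA libraries came from 3 sublines, LM2, BrM3 and BoM, of the human triple-negative breast cancer line MDA-MB-231 which favour the lung, brain and bone respectively (the labels call the brain subline BrM or BrM2, and the study's text BrM3, the name used here). Hairpins were switched on with doxycycline (DOX) in each subline, with shWDR5 aimed at WDR5 and shCtrl as its control, and the comparison asks what reducing WDR5 does to transcript levels in each subline. All 18 libraries, shCtrl included, came from cells kept in DOX at 1 μg/mL for 3 days, with 3 libraries for each of the 6 combinations of line and hairpin. Per the study's methods, the knockdown used the hairpin shWDR5-1 and the 3 replicates of a group were taken at different passages. The model is therefore limited to 1 WDR5 hairpin and to sublines of 1 parental line, grown in culture.

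MHC class I molecules carry peptides from inside the cell to its surface, where CD8 T cells inspect them. A class I heavy chain (HLA-B, HLA-C or the less variable HLA-E, whose main reader is the NKG2A receptor of natural killer cells) pairs with the light chain β2-microglobulin, encoded by B2M. Peptides made by the proteasome enter the endoplasmic reticulum through the TAP1-TAP2 transporter, are trimmed by the aminopeptidase ERAP1 and are loaded with the help of tapasin, encoded by TAPBP. NLRC5 is the transactivator that raises transcription of the class I genes, and many of these genes respond to interferon. WDR5 is a scaffold protein best known from complexes that methylate lysine 4 of histone H3.

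The promoters of the members are shown because they carry the interferon-responsive elements through which class I genes are known to be induced together. A promoter window of 300 bases, most of it upstream of the start of transcription, was present for 7 of the 9 genes in the RefSeq table (GRCh38.p14), and HLA-E and NLRC5 had no entry. The stretches below run 5′ to 3′ on the strand of the gene, and capitals mark matches to the core letters of the interferon-stimulated response element (ISRE), TTTCNNTT, on either strand.
HLA-B, chr6:31357267-31357364, minus strand: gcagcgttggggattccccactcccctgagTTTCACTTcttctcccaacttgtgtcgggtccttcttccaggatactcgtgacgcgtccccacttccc
HLA-C, chr6:31272176-31272273, minus strand: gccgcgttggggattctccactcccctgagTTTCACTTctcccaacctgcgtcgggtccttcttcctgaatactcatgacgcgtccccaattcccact
B2M, chr15:44711345-44711448, plus strand: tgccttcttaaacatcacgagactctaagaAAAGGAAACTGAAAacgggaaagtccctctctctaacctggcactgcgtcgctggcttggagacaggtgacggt
TAP1, chr6:32853765-32853868, minus strand: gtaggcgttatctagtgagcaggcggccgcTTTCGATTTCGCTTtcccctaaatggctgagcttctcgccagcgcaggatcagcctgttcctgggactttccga
TAP2, chr6:32838740-32838831, minus strand: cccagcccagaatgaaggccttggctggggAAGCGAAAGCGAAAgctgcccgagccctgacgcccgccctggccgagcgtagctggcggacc
TAPBP, chr6:33314079-33314126, minus strand: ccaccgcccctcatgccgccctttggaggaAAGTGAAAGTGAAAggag
ERAP1, chr5:96807928-96807957, minus strand: tccccgggctccacTTTCACTTtcggtcct

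HLA-B and HLA-C hold the same letters, TTTCACTT, from position -155 to -148 relative to the start in HLA-B and from -151 to -144 in HLA-C. B2M, TAP1, TAP2 and TAPBP each hold a pair of overlapping core matches, on the minus strand of the gene in B2M, TAP2 and TAPBP, and in ERAP1 the match lies at positions 3 to 10 past the start. The core was found in 7 of 7 windows against 22.8% of 35116 promoter windows of 300 bases in the table. The longer form, a core followed directly by TC, so that each match contains a core match, was found in 5 of 7 windows against 3.57% of all. A form of the κB site, GGGNN followed directly by TNNCC, was present in 6 of 7 against 22.0%, CCAAT in 5 of 7 against 34.6%, and TGACG, part of the cyclic AMP response element, in 4 of 7 against 24.6%. All letters were searched on both strands and were chosen after the sequences had been read, so these counts describe the windows and do not show binding or use.

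Libraries held 17485841 to 119667013 counts, the fewest in BrM3 shWDR5 replicate 1 and the most in LM2 shCtrl replicate 3. Levels are given below in CPM, the gene's share of its library's counts on the customary scale, after TMM scaling, which corrects each library for its composition. CPM is thus relative to the library's RNA and not an amount per cell. In bulk RNA, a drop in the number of cells of a type and a drop in RNA per cell cannot be told apart. WDR5 itself was at 112, 127 and 133 CPM in LM2 shCtrl and at 24.2, 24.3 and 20.4 CPM in LM2 shWDR5, and it fell by 2.43, 1.97 and 2.24 on the log2 scale in LM2, BrM3, BoM respectively. The source labels name the line of the title in 6 of 18 libraries and were not used. By expression, all 18 libraries had their nearest neighbour among the libraries of the line given in the title. Of the markers of mammary epithelium, KRT8 and KRT18 were at 193 to 499 CPM, KRT19 at 24.1 to 169 and KRT7 at 6.94 to 132, whereas CDH1 (E-cadherin) did not exceed 0.598 CPM and EPCAM lay between 4.37 and 10.1 CPM. KRT7 was far higher in LM2 shCtrl (mean 120 CPM) than in BrM3 (12.6) or BoM (14). With shWDR5, 4 of the 5 tested epithelial markers fell in BoM, where 10.8% of all tested genes fell. In the average of the lines 4 fell and 1 rose, against 19.9% and 15.6% of all tested genes. The part of these markers in the results below was not tested. The mesenchymal marker VIM reached at least 1490 CPM in every library, and of the receptors that define triple-negative cells by their absence ESR1 and PGR stayed at or under 0.712 CPM while ERBB2 was at 41.3 to 82.9 CPM. The fibroblast marker COL1A1 fell by 1.15 and the endothelial marker PECAM1 rose by 0.41 on the log2 scale in the average, while DCN and CDH5, further markers of those cells, did not exceed 0.338 CPM. Of 5 leukocyte markers, the T cell marker CD3E had at most 3 counts per library. The 5 summed to between 1.31 and 4.71 CPM over the 18 libraries, and the highest sum in BoM shWDR5, 1.42 CPM, lay under the lowest in BoM shCtrl, 1.56 CPM.

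All 9 genes were expressed in all 6 groups. B2M was the most abundant member, HLA-E the next, and NLRC5 the least abundant (levels plotted by gene and group). In LM2 shCtrl, scaled per kilobase of exon, B2M stood at 266 CPM per kb, HLA-E at 93.4, HLA-B at 47.1, HLA-C at 39.1, TAPBP at 13.6, ERAP1 at 7.98, TAP1 at 6.7, TAP2 at 6.57 and NLRC5 at 2.29. The ranges of HLA-B and HLA-C overlapped, as did those of TAP1 with TAP2 and of ERAP1 with TAP2, so these neighbours in the order were not separated by their spread. In BrM3 shCtrl, B2M was at 192 CPM per kb, HLA-E at 92.5, HLA-C at 33.6, HLA-B at 31.7, TAPBP at 15.4, TAP2 at 11.8, ERAP1 at 10.7, TAP1 at 9.01 and NLRC5 at 1.8, and only HLA-C and HLA-B had overlapping ranges among neighbours in the order. In BoM shCtrl, B2M was at 171, HLA-E at 75.3, HLA-C at 39.6 and HLA-B at 34.7 CPM per kb, the last pair again overlapping. There ERAP1 at 14.2 and TAP2 at 10.7 CPM per kb stood above TAPBP at 9.33 CPM per kb, with TAP2 and TAPBP overlapping, and NLRC5 was at 0.972 CPM per kb. The lowest count behind any member's value was 206, for NLRC5 in a BoM shCtrl library.

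**Figure D1:**
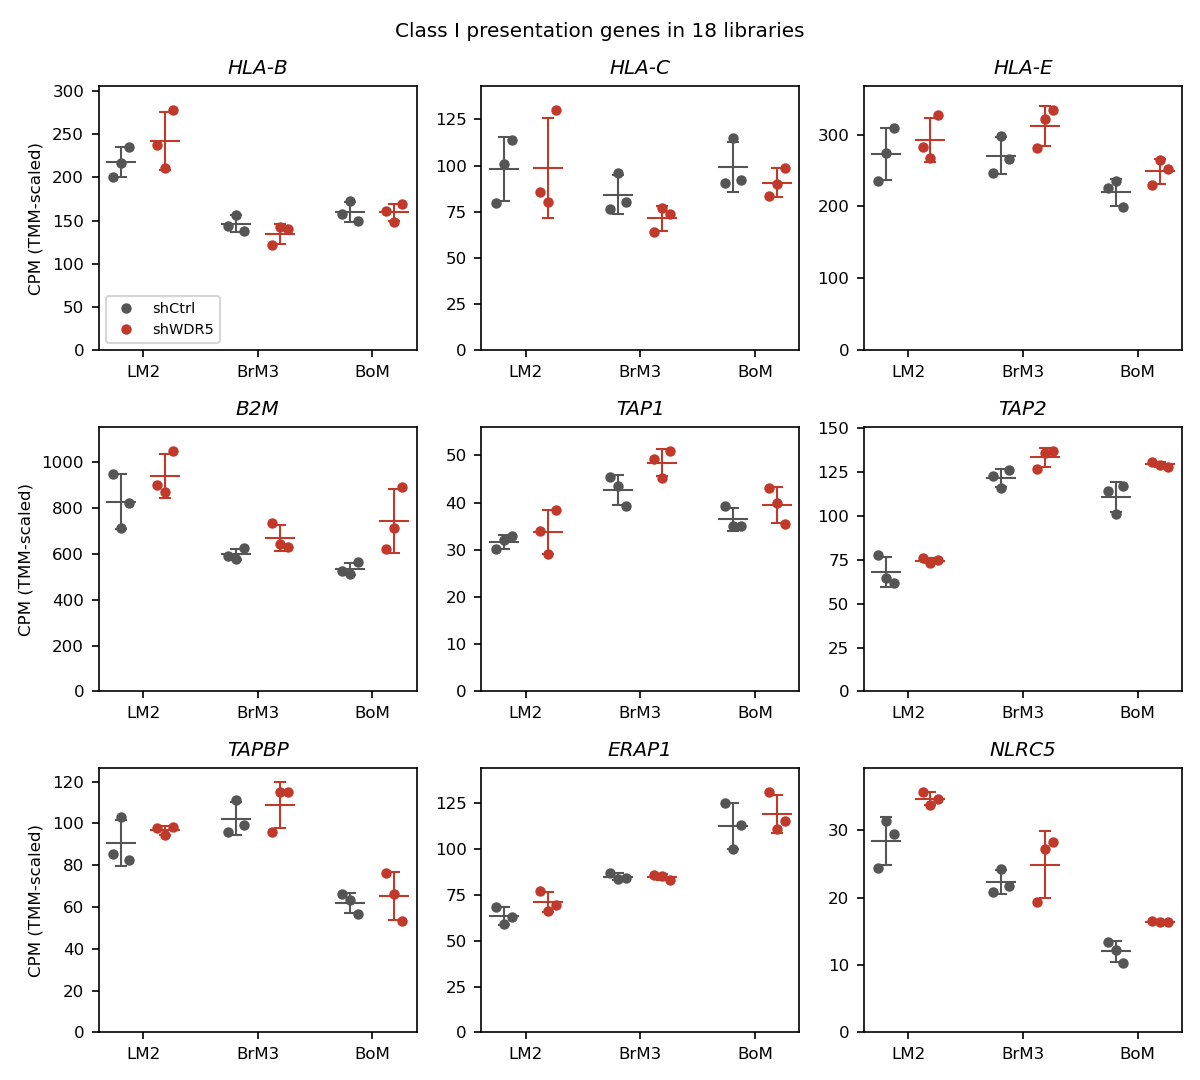
TMM-scaled CPM (vertical axes, linear, from 0) of each class I gene in the 3 shCtrl (grey) and 3 shWDR5 (red) libraries of LM2, BrM3 and BoM. Points are libraries, and bars give the mean ± SD of 3. B2M ranges from 512 to 1050 CPM and NLRC5 from 10.3 to 35.7 CPM, and NLRC5 in BoM, at 10.3 to 16.6 CPM, lies under all its other groups.

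The genes lie on 4 chromosomes. On chromosome 6 are HLA-E (30489509 to 30494194, plus strand), HLA-C (31268749 to 31272130, minus), HLA-B (31353872 to 31367067, minus), TAP2 (32821833 to 32838739, minus), TAP1 (32845209 to 32853816, minus) and TAPBP (33299694 to 33314284, minus). ERAP1 lies on chromosome 5 (96760810 to 96808100, minus), B2M on chromosome 15 (44711358 to 44718851, plus) and NLRC5 on chromosome 16 (56989485 to 57083531, plus), all in GRCh38 with GENCODE release 44. Reads of some members may be shared with other genes. Of the 50-base stretches in the exons, 42.3% for HLA-B, 21.8% for TAPBP, 18.5% for TAP2 and 12.8% for TAP1 also occur in transcripts of other genes, against 5.79% for HLA-C, 5.19% for HLA-E and 0 for B2M and NLRC5. HLA-B shares 1421 exon bases with the pseudogene DHFRP2 on the same strand, and its exon models sum to 4.62 kb, which lowers its level per kb. TAP2 shares 2023 exon bases with an unnamed protein-coding gene on the same strand. TAPBP overlaps a long non-coding RNA on the opposite strand over 1397 exon bases, and TAP1 overlaps PSMB8-AS1 over 672. ERAP1 overlaps CAST on the opposite strand over 299 exon bases. Whether the counts used the strand of the reads is not given in the sources used here. The overlaps of HLA-B and TAP2 on the same strand would remain in either case. The values of these 5 genes are uncertain to that extent.

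More of these genes passed the test between lines than between hairpins within a line. The same held over all tested genes, with 37.6% to 51.8% called between lines and 6.29% to 16.2% between hairpins. In shCtrl libraries, the heavy chain HLA-B, the light chain B2M and the transactivator NLRC5 were lower in BrM3 and in BoM than in LM2, while TAP2 and ERAP1 were higher in both. BoM also had less HLA-E and less TAPBP than LM2 (log2 differences between lines plotted by gene).

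HLA-B was at 201, 217 and 235 CPM in LM2 shCtrl, 144, 157 and 138 for BrM3 and 158, 173 and 150 for BoM. All 3 LM2 libraries lay above all libraries of the other lines, and the log2 difference from LM2 was -0.57 (SE 0.11, adjusted p = 0.00025) for BrM3 and -0.44 (SE 0.1, adjusted p = 0.0021) for BoM. HLA-C, whose promoter window holds the same TTTCACTT as that of HLA-B, was at 79.8, 101 and 114 CPM in LM2, 76.3, 96 and 80.4 for BrM3 and 90.3, 115 and 92.2 for BoM. Its groups overlapped in every pair of lines, and the log2 differences, from -0.22 to 0.24 with SE 0.17, did not pass the test. With a correction for the GC content of genes HLA-C did pass in all 3 pairs, at -0.24 for BrM3 over LM2, 0.31 for BoM over LM2 and 0.55 for BoM over BrM3 (adjusted p = 0.011, 0.0019 and 1.3e-05). HLA-E was at 236, 274 and 309 CPM in LM2, 247, 298 and 266 for BrM3 and 226, 235 and 199 for BoM. The BoM libraries were the lowest, with log2 differences of -0.31 from LM2 (adjusted p = 0.03) and -0.3 from BrM3 (adjusted p = 0.049). With the same correction these 2 differences were -0.01 and 0.04 and neither passed the test. Without LM2 shCtrl replicate 2, replicate 3 or BoM shCtrl replicate 3 the call of HLA-E between BoM and LM2 was also lost (adjusted p = 0.067, 0.16 and 0.13), and that between BoM and BrM3 passed in only 7 of 18 fits with a library left out.

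B2M was at 951, 714 and 822 CPM in LM2 shCtrl, 592, 579 and 626 for BrM3 and 526, 512 and 565 for BoM. The groups did not overlap for any pair of lines, with log2 differences from LM2 of -0.47 (adjusted p = 0.0054) for BrM3 and -0.63 (adjusted p = 0.00045) for BoM, while BoM and BrM3 differed by -0.16 (SE 0.13, adjusted p = 0.32). NLRC5 was at 24.4, 31.4 and 29.4 CPM in LM2, 20.9, 24.3 and 21.7 for BrM3 and 13.5, 12.3 and 10.3 for BoM. The BoM level was 0.425 times that of LM2 (log2 -1.23, SE 0.14, adjusted p = 1e-06) and 0.543 times that of BrM3 (log2 -0.88, adjusted p = 8.9e-05), which made NLRC5 the member with the largest difference between lines. The smaller BrM3 difference from LM2, -0.35 (adjusted p = 0.038), lost its call without LM2 shCtrl replicate 2 or 3 or without BrM3 shCtrl replicate 1 or 3 (adjusted p = 0.091 to 0.15).

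In the peptide branch, TAP2 was at 77.7, 64.8 and 61.8 CPM in LM2 shCtrl, 123, 116 and 126 for BrM3 and 114, 101 and 117 for BoM. Its level was 1.79 times that of LM2 in BrM3 (log2 0.84, SE 0.09, adjusted p = 4.7e-07) and 1.63 times in BoM (log2 0.7, adjusted p = 3.5e-06). Its partner TAP1, with a pair of core matches in its window as TAP2 has, was at 30.1, 32.1 and 33 CPM in LM2, 45.4, 43.6 and 39.2 for BrM3 and 39.2, 35.1 and 35 for BoM. TAP1 was higher in BrM3 than in LM2 (log2 0.43, adjusted p = 0.0035), and its difference between BoM and LM2, 0.2 (SE 0.11, adjusted p = 0.13), did not pass the test although the libraries did not overlap. The trimming enzyme ERAP1 was at 68.3, 58.9 and 63.1 CPM in LM2, 86.9, 83.4 and 84.2 for BrM3 and 125, 100 and 113 for BoM. It passed the test in all 3 pairs, with the order LM2, BrM3, BoM (log2 0.42, 0.83 and 0.41 for BrM3 over LM2, BoM over LM2 and BoM over BrM3). The loading factor TAPBP was at 85.5, 103 and 82.7 CPM in LM2, 96, 111 and 99.4 for BrM3 and 66.1, 63.3 and 56.7 for BoM. It was lower in BoM, with log2 differences of -0.54 from LM2 (adjusted p = 0.0013) and -0.72 from BrM3 (adjusted p = 0.00021).

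Between BrM3 and LM2, 3 of 9 members were higher and 3 lower, where 24.2% of all tested genes were higher and 23.4% lower (47.6% in all), and 6 of 9 had groups that did not overlap, against 58.9% of tested genes. Between BoM and LM2, 2 were higher and 5 lower against 26% and 25.8% (51.8% in all), and 8 of 9 did not overlap against 56.1%. Between BoM and BrM3, 1 was higher and 3 lower against 17.8% and 19.8% (37.6% in all), and 5 of 9 did not overlap against 54.4%. The lines differed in a large part of the transcriptome, and the counts of members are to be read against that background. Each pair of these 3 comparisons shares a group of shCtrl libraries, so they are not independent of each other.

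**Figure D2:**
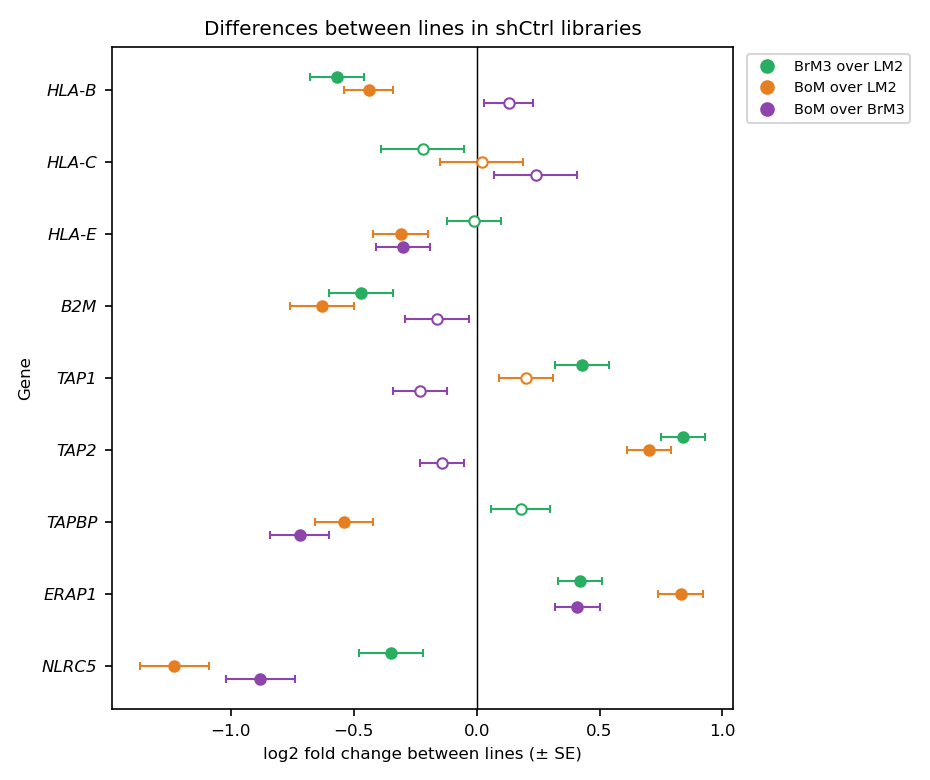
Log2 fold change between lines in shCtrl libraries (horizontal axis) for each class I gene, with bars of ± 1 SE, in green for BrM3 over LM2, orange for BoM over LM2 and purple for BoM over BrM3. Filled points passed an adjusted p of 0.05. TAP2 and ERAP1 lie to the right for BoM over LM2 (0.7 and 0.83), and NLRC5 and B2M to the left (-1.23 and -0.63).

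Reducing WDR5 was followed by small differences in these genes. Averaged over the 3 lines, NLRC5, B2M and TAP2 rose to 1.23, 1.21 and 1.12 times their shCtrl levels, and none of the 9 fell. Taken line by line, B2M and NLRC5 rose in BoM, and no member passed the test in LM2 or BrM3 (log2 fold changes plotted by gene and line).

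The heavy chains did not pass the test in any line or in the average, although HLA-E did under several other settings. HLA-B was at 238, 211 and 278 CPM in LM2 shWDR5, 122, 143 and 140 for BrM3 shWDR5 and 161, 149 and 169 for BoM shWDR5, and in each line these values overlapped those of shCtrl. Its averaged log2 fold change was 0.01 (SE 0.06, adjusted p = 0.92). HLA-C was at 85.9, 80.2 and 130 CPM in LM2 shWDR5, 63.9, 76.9 and 73.6 for BrM3 and 83.5, 89.9 and 98.9 for BoM. It was the member with the lowest estimate in every line, 0.00, -0.24 and -0.13, each with SE 0.17, and -0.12 (SE 0.1, adjusted p = 0.36) in the average. HLA-E was at 283, 268 and 327 CPM in LM2 shWDR5, 281, 322 and 334 for BrM3 and 230, 264 and 252 for BoM. Its estimates were 0.1, 0.21 and 0.18 and the average was 0.16 (SE 0.07, adjusted p = 0.064). That average did pass in the fits with DESeq2 or a wider filter (adjusted p = 0.032 and 0.031) and lay at an adjusted p of 0.05 without a filter. With GC offsets HLA-E passed in BrM3, at 0.4 (adjusted p = 0.0045), and likewise in BoM, at 0.4 (adjusted p = 0.0037).

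Within a library, the ratio of HLA-C to HLA-E can be read without any scaling. It was 0.309, 0.322 and 0.302 for BrM3 shCtrl and 0.227, 0.239 and 0.22 for BrM3 shWDR5. In BoM it was 0.4, 0.491 and 0.463 with shCtrl and 0.363, 0.34 and 0.393 with shWDR5, and in LM2 the ranges overlapped, at 0.338 to 0.368 and 0.299 to 0.398. HLA-C thus stood lower beside HLA-E in all shWDR5 libraries of BrM3 and BoM, a description made after the values had been seen and not tested. The exons of HLA-C and HLA-E have nearly the same GC content, 61.2% and 61.6%.

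B2M, the chain that all class I heavy chains need, was at 622, 715 and 895 CPM in BoM shWDR5 against 526, 512 and 565 for BoM shCtrl. All 3 shWDR5 libraries lay above all 3 shCtrl libraries, and B2M rose by 0.48 on the log2 scale (fold 1.39, SE 0.13, adjusted p = 0.015). The highest value, of shWDR5 replicate 3, weighed on this result. Without that library the estimate was 0.32 (adjusted p = 0.082), and without BoM shCtrl replicate 2 it was 0.45 (adjusted p = 0.064). In LM2, B2M was at 902, 872 and 1050 CPM with shWDR5, inside or just above the shCtrl range, and the estimate was 0.18 (SE 0.13, adjusted p = 0.46). In BrM3 it was at 736, 644 and 631 CPM, all above the shCtrl libraries but by as little as 631 against 626, and the estimate was 0.16 (adjusted p = 0.47). The averaged rise was 0.27 (SE 0.07, adjusted p = 0.0071), and it passed the test in each of 18 fits that left out a library, at 0.22 to 0.31.

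NLRC5 was at 16.6, 16.4 and 16.4 CPM in BoM shWDR5 against 13.5, 12.3 and 10.3 for BoM shCtrl, and rose by 0.45 (fold 1.36, SE 0.14, adjusted p = 0.036). The groups did not overlap, but the call was lost without BoM shCtrl replicate 2 (adjusted p = 0.088) or 3 (0.35 on the log2 scale, adjusted p = 0.13) and without BoM shWDR5 replicate 1, 2 or 3 (adjusted p = 0.067, 0.077 and 0.07). In LM2 it was at 35.7, 33.8 and 34.6 CPM with shWDR5, above all 3 shCtrl values, with an estimate of 0.29 (SE 0.13, adjusted p = 0.24). In BrM3 it was at 19.3, 27.2 and 28.3 CPM, which overlapped shCtrl, with an estimate of 0.17 (adjusted p = 0.48). The averaged rise was 0.3 (SE 0.08, adjusted p = 0.0064) and ranged from 0.27 to 0.35 when single libraries were left out, passing the test each time.

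Among the genes of peptide transport, trimming and loading, TAP2 was at 75.9, 73.2 and 74.7 CPM in LM2 shWDR5, 127, 136 and 137 for BrM3 and 131, 129 and 128 for BoM. In BrM3 and BoM all shWDR5 libraries lay above all shCtrl libraries. TAP2 passed the test only in the average of the lines, at 0.16 (SE 0.05, adjusted p = 0.019), and not in a single line, where BoM came nearest with 0.22 (SE 0.09, adjusted p = 0.095). In BoM, TAP2 did pass with DESeq2 (0.24, adjusted p = 0.034), with GC offsets (0.3, adjusted p = 0.0073) and without LM2 shCtrl replicate 1 (0.22, adjusted p = 0.048). In the fit that kept every gene with a count, the average was 0.19 and did not pass (adjusted p = 0.06). TAP1 was at 33.9, 29.1 and 38.4 CPM in LM2 shWDR5, 49.3, 45.2 and 50.9 for BrM3 and 43, 40 and 35.4 for BoM, and its average of 0.13 (SE 0.06, adjusted p = 0.12) did not pass. TAPBP was at 97.8, 94.3 and 98.2, then 95.9, 115 and 115, then 76.5, 66.2 and 53.5 CPM in the same order of lines, with an average of 0.09 (SE 0.07, adjusted p = 0.36). ERAP1 was at 77.3, 66.3 and 69.5 CPM in LM2 shWDR5, 85.8, 85.3 and 82.8 for BrM3 and 131, 111 and 115 for BoM, with an average of 0.08 (SE 0.05, adjusted p = 0.27). All shWDR5 groups of TAP1, TAPBP and ERAP1 overlapped their shCtrl groups.

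**Figure D3:**
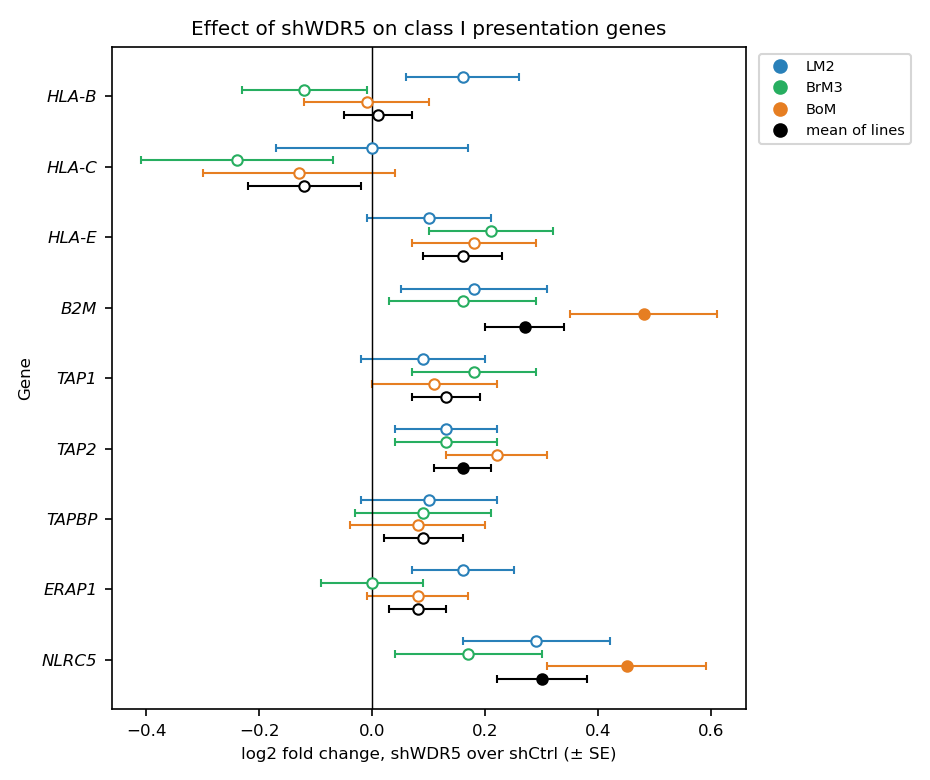
Log2 fold change of shWDR5 over shCtrl (horizontal axis) for each class I gene, with bars of ± 1 SE, in blue for LM2, green for BrM3, orange for BoM and black for the mean of the lines. Filled points passed an adjusted p of 0.05. B2M (0.48) and NLRC5 (0.45) are filled in BoM, and NLRC5 (0.3), B2M (0.27) and TAP2 (0.16) in the mean.

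Set beside all 12160 tested genes, the counts of members were modest. In LM2, 0 of 9 members passed edgeR's test, where 1.49% of tested genes rose and 4.8% fell (6.29% in all), and 1 member, NLRC5, had an unadjusted p under 0.05. The groups of 1 member did not overlap, against 25.3% of tested genes. In BrM3, 0 of 9 passed, against 2.92% that rose and 7.96% that fell (10.9% in all), 0 had an unadjusted p under 0.05, and 2 did not overlap against 35.6%. DESeq2 also called 0 members in LM2 and BrM3. In BoM, 2 of 9 rose and 0 fell, against 5.41% and 10.8% (16.2% in all), and 3 did not overlap against 30.1%. With the replicate number as a block in BoM, 1375 genes rose and 1830 fell in place of 658 and 1309, and the number of members that rose was again 2. In the average of the lines, 3 of 9 rose and 0 fell, against 15.6% and 19.9% (35.5% in all). The median log2 fold change of the 9 members was 0.13 for LM2, 0.13 for BrM3, 0.11 for BoM and 0.13 in the average, where the median of all tested genes was 0.003. Estimates were above 0 for 8 of 9 members in the average, and HLA-C was the exception. The members belong to 1 pathway and are known to share regulators, so they are not independent of each other.

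No member was shown to respond differently in different lines. The differences of the shWDR5 effect between lines ranged from -0.27 for HLA-B in BrM3 against LM2 (SE 0.15) to 0.32 for B2M in BoM against BrM3 (SE 0.18), and each adjusted p in edgeR's test was 1. Over all tested genes 1, 0 and 1 passed for the 3 pairs of lines, so 0.00822% was the highest share called. Of the members, 0 had an unadjusted p under 0.05, and DESeq2 called 0. The rise of B2M and NLRC5 in BoM was therefore not shown to exceed their estimates in LM2 and BrM3.

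Libraries differed in how their values depended on the GC content of genes. The correlation of a library's log2 CPM deviations with gene GC content ran from -0.42 for BoM shWDR5 replicate 1 to 0.34 for BrM3 shCtrl replicate 2, and all 3 BoM shWDR5 libraries were at or under -0.26. In LM2 shCtrl, replicate 1 was at -0.18, and replicates 2 and 3 at 0.25 and 0.32. The heavy chains are rich in GC, at 57.8% for HLA-B, 61.2% for HLA-C and 61.6% for HLA-E, against a median of 48.8% over tested genes and 41.9% for B2M. Within groups, the deviations of HLA-E followed those of the libraries' GC dependence with Pearson's r of 0.91 over 18 libraries, HLA-C with 0.86, HLA-B with 0.79 and NLRC5 with 0.76, whereas B2M gave -0.27 and TAP1 0.15. All these points share the depth and base composition of their libraries, and the r values are a description.

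When each library's dependence on GC was removed with offsets, 7 of 9 members rose in the average of the lines in place of 3, while over all tested genes 3769 rose and 2447 fell in place of 1901 and 2417 (effects plotted under 5 settings). The median log2 fold change of all tested genes in the average also moved, from 0.003 without the offsets to 0.054 with them. HLA-E was then at 0.32 (adjusted p = 7.6e-05), NLRC5 at 0.41, TAP1 at 0.23 (adjusted p = 0.0058), TAPBP at 0.21 (adjusted p = 0.02) and HLA-B at 0.13 (adjusted p = 0.018). B2M kept its estimate of 0.27, TAP2 was at 0.22, and HLA-C, at 0.03, and ERAP1, at 0.09, did not pass. In edgeR's test B2M and NLRC5 passed with and without the offsets. The calls of HLA-B, TAP1 and TAPBP in the average depend on this choice. HLA-E was also called there without the offsets, with DESeq2, a wider filter or the replicate block (adjusted p = 0.032, 0.031 and 0.015). The part of the GC dependence in the calls of these 4 genes was not tested further. Line by line, the offsets gave 1001 genes that rose and 975 that fell in LM2 in place of 181 and 584, 1696 and 1293 for BrM3 in place of 355 and 968, and 1863 and 1515 for BoM in place of 658 and 1309. DESeq2, with its own scaling, gave 410 and 737 for LM2 and 1074 and 1399 for BoM.

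**Figure D4:**
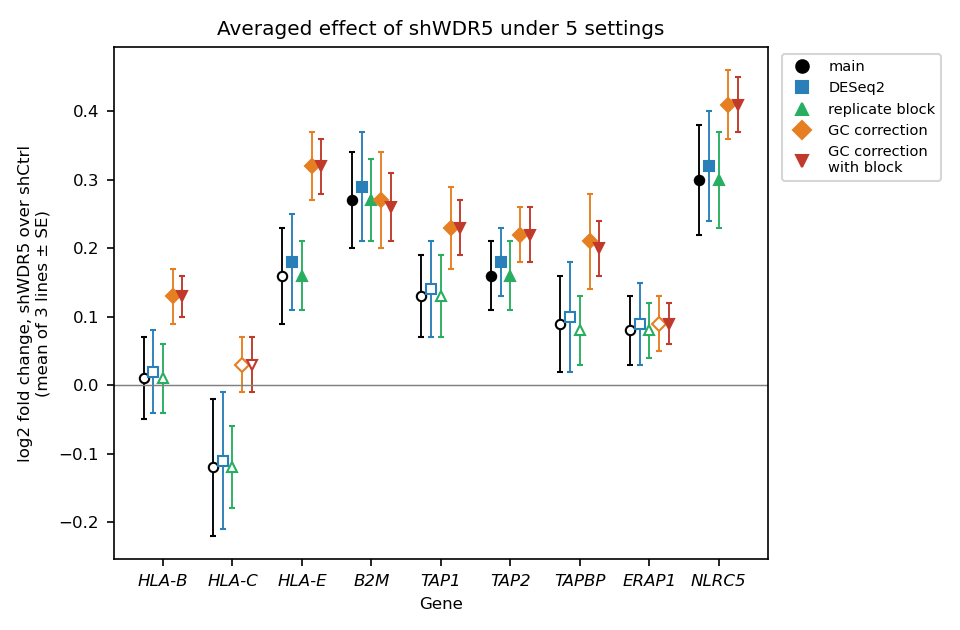
Log2 fold change of shWDR5 over shCtrl averaged over the 3 lines (vertical axis, ± 1 SE) for each class I gene under 5 settings: the reported fit, DESeq2, a replicate block, GC offsets, and GC offsets with the block. Filled symbols passed an adjusted p of 0.05. B2M and NLRC5 are filled in all 5, while HLA-E moves from 0.16 to 0.32 with GC offsets and HLA-C is unfilled in each.

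The members did not move as 1 unit over the libraries. Within groups, the log2 CPM of HLA-B and HLA-C correlated with r of 0.89, HLA-C and HLA-E with 0.86 and HLA-B and HLA-E with 0.77, while B2M and TAPBP gave -0.81 (18 libraries, description only). Over all 18 libraries without removing group means, TAP1 and TAP2 gave 0.77, HLA-E and NLRC5 gave 0.78, HLA-B and TAP2 gave -0.9, and ERAP1 and NLRC5 gave -0.84. Genes that were high in LM2 thus ran against those that were low there. The mean of the members, each centred and divided by its SD over libraries, was lowest in BoM shCtrl, at -0.34, -0.4 and -0.68, against -0.02, -0.03 and 0 for BoM shWDR5, and highest in LM2 shWDR5 replicate 3, at 0.81. The genes outside the list whose log2 CPM followed this mean most closely over the 18 libraries were PANK4 (r = 0.903), PLXNA3 (0.9), FMNL1 (0.896), GADD45B (0.874) and MCRIP1 (0.869). As given above, the heavy chains and NLRC5 followed the libraries' GC dependence within groups. The part of that dependence in these correlations was not tested.

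Other genes of antigen presentation were followed through lists that were written, like the members, with earlier results of these data known. In the average of the lines, all 8 tested genes of MHC class II presentation fell. Genes that supply peptide to class I were mostly not called, and 6 of 14 interferon-stimulated genes fell while 2 rose (log2 fold changes plotted by list).

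Over all tested genes 15.6% rose and 19.9% fell in this average. Of 15 genes of peptide supply and loading, 2 rose and 0 fell, with a median of 0.13, so the share that rose lay near that of all genes. The count that rose was 5 without LM2 shCtrl replicate 1 or LM2 shWDR5 replicate 3, 4 without BoM shCtrl replicate 3 and 1 without BoM shWDR5 replicate 2. They were PSME2, a subunit of the interferon-induced proteasome activator (log2 0.41, SE 0.07, adjusted p = 3e-04), and SEC61A1, the core of the endoplasmic reticulum translocon (0.17, adjusted p = 0.026). PSME2 went from a mean of 167 CPM in BoM shCtrl to 237 for BoM shWDR5 and from 125 to 162 for BrM3. Between lines, the immunoproteasome subunit PSMB10 was lower in BoM than in LM2 (-1.23, SE 0.31, adjusted p = 0.003), while PSME2 (0.76) and the chaperone CALR (0.63) were higher there, and PSMB9, whose promoter region lies beside that of TAP1, was higher in BrM3 than in LM2 (0.59, adjusted p = 0.0039).

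Of 24 tested regulators, among them interferon signalling genes and the factors that bind class I promoters with NLRC5, 7 rose and 4 fell. Their median was 0.14, and the shares over all tested genes were the same 15.6% and 19.9%. With GC offsets 15 regulators rose, where 3769 of all 12160 tested genes rose in place of 1901. Both NLRC5 and the class II transactivator reach their promoters through the RFX complex. Of its subunits, RFX5 fell by 0.35 (adjusted p = 9.6e-06) and RFXAP fell by 0.49 (adjusted p = 0.0014). RFXANK went the other way, at 0.28, and did not pass the test (adjusted p = 0.075). RFX5 stood at a mean of 101 CPM in LM2 shCtrl and 71.8 for LM2 shWDR5, and at 62.8 and 48.9 CPM in BoM. NFYA, a subunit of the factor that binds CCAAT, rose by 0.38 (adjusted p = 0.00018), while its partner NFYB fell by 0.18 (adjusted p = 0.032) and NFYC was at 0. The kinase JAK2, which acts below the interferon γ receptor, rose by 0.5 (adjusted p = 0.00044). Both RFX5 (-0.69) and RFXAP (-0.76) were lower in BoM than in LM2, as NLRC5 was, whereas NFYB was higher there (0.8). The kinase TYK2 was lower in BoM than in BrM3 (-0.73, adjusted p = 0.012).

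Of 14 tested interferon-stimulated genes, 2 rose and 6 fell, with a median of -0.25, against 15.6% and 19.9% of all tested genes. The antiviral genes MX1 (-0.64), OAS3 (-0.66) and OAS2 (-0.58, adjusted p = 5.8e-05) fell, and GBP1, a GTPase induced by interferon γ, rose by 0.4 (adjusted p = 0.00017). OAS3 went from 37.8 to 26 CPM in LM2, from 37.3 to 22.3 for BrM3 and from 56.8 to 35 for BoM. NLRC5, B2M and TAP2 therefore rose in comparisons in which several antiviral genes fell. Between lines, IFI27 (-3.59, SE 0.28) and IFI44 (-0.97) were lower in BrM3 than in LM2. IFI27 had 11 to 18 counts in the BrM3 shCtrl libraries and at most 1.36 CPM in BoM. It passed the filter only through LM2, at 3.91 to 4.45 CPM in shCtrl, so the filter favoured a difference in this direction. GBP2 (-1.3, SE 0.13) and ISG15 (-1.3, SE 0.42, with overlapping groups) were lower in BoM than in LM2. The call of ISG15 held in 16 of 18 fits with a library left out.

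All 8 tested genes of class II presentation fell in the average of the lines, with a median of -0.66, against 19.9% of all tested genes that fell. HLA-DMA, which edits peptides on class II, fell by 1.22 (adjusted p = 1.8e-09), its partner HLA-DMB fell by 1.02 (adjusted p = 2.5e-05), and the class II chains HLA-DPB1 and HLA-DRA fell by 1.24 and 0.58. In BoM shWDR5, HLA-DPB1 had only 3 to 7 counts per library and HLA-DMB 4 to 15. HLA-DRA was at 73 ± 1.13 CPM (SD, n = 3) in BrM3 shCtrl and 49 ± 4.6 for BrM3 shWDR5, and at 8.21 ± 0.356 and 4.12 ± 0.598 for BoM. By line, LM2 had 1 of 8 that fell, BrM3 had 7 and BoM had 8, against 4.8%, 7.96% and 10.8% of all tested genes. The difference of the effect between lines passed the test for none of these 8 genes. In shCtrl libraries all 8 were lower in BoM than in LM2 (median -2.25) and than in BrM3 (median -2.14), with CD74, the invariant chain, at -2.59 against LM2 and HLA-DRB1, HLA-DRA and HLA-DMB at -3.23, -3.15 and -2.97 against BrM3. HLA-DMB, HLA-DPB1 and HLA-DPA1 reached at most 1.2, 0.988 and 2.71 CPM in BoM shCtrl. They passed the filter only through LM2 or BrM3, so the filter favoured a lower level in BoM for them. BoM thus held the least transcript of these 8 genes among the 3 lines, as it held the least NLRC5 and TAPBP. HLA-DOB, which did not pass the filter, was lowest in LM2 in shCtrl. Of the 5 leukocyte markers, the monocyte marker CD14 moved with these genes, from a mean of 2.08 to 0.638 CPM in BrM3, where it fell by 1.78 (adjusted p = 0.017), and from 0.742 to 0.324 CPM in BoM (-1.28, adjusted p = 0.14). The pan-leukocyte marker PTPRC had means of 0.691 and 0.92 CPM in BrM3 with shCtrl and shWDR5, and of 0.898 and 0.91 CPM in BoM. The part of CD14 in the class II result was not tested.

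**Figure D5:**
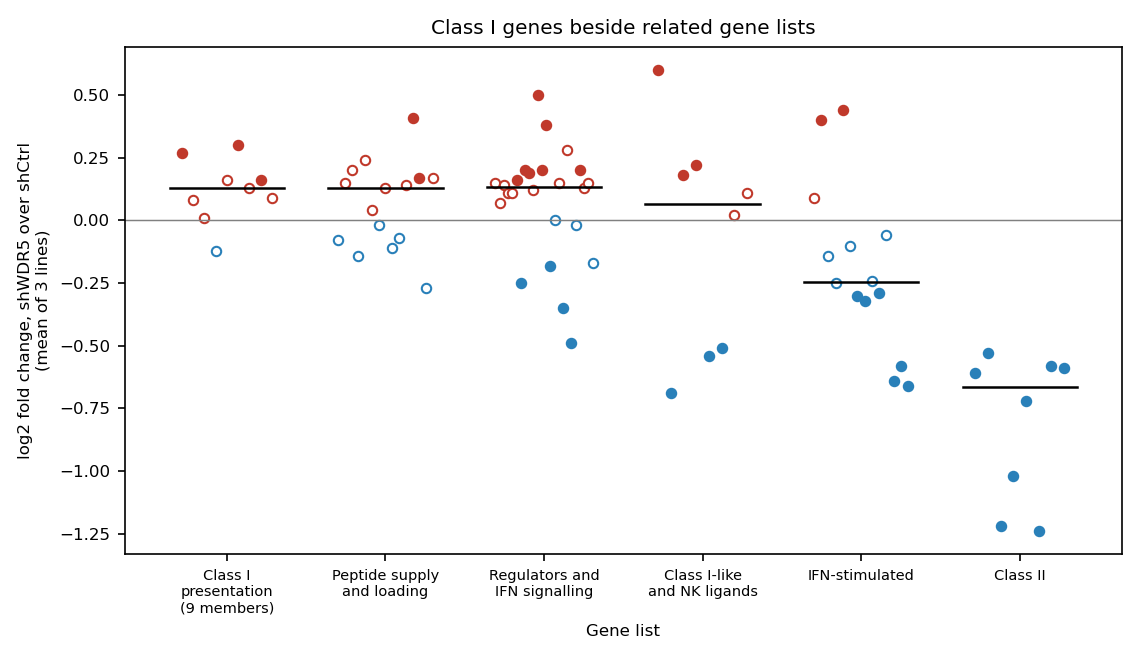
Log2 fold change of shWDR5 over shCtrl averaged over the 3 lines (vertical axis) for each tested gene of 6 lists, the class I members first. Red points are above 0 and blue points below it, filled points passed an adjusted p of 0.05, and the short bar is the median of the list. The class I median is 0.13, with 3 of 9 genes filled, and the class II median is -0.66, with 8 of 8 filled.

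Of 8 tested genes for class I-like molecules and ligands of lymphocyte receptors, 3 rose and 3 fell, with a median of 0.07, against 15.6% and 19.9% of all tested genes. CD274, which encodes PD-L1, rose by 0.6 (adjusted p = 9.2e-05), from 23.2 ± 3.33 to 34.4 ± 6.24 CPM in LM2, from 18.8 ± 2.11 to 28.7 ± 5.34 for BrM3 and from 30 ± 4.54 to 46.2 ± 3.67 for BoM (SD, n = 3). MICB, a stress ligand of the NKG2D receptor, rose by 0.22 (adjusted p = 0.0026). HFE, a class I-like protein of iron regulation that pairs with β2-microglobulin, fell by 0.69 (adjusted p = 9.5e-07), and MR1, which presents vitamin metabolites and also pairs with it, fell by 0.54 (adjusted p = 0.00078). B2M therefore rose while transcripts of these 2 partners fell. Between lines, HFE was lower in BoM than in LM2 (-1.04), MR1 was lower in BoM than in BrM3 (-0.78), and the NKG2D ligands RAET1G (-0.82) and MICA (0.72) differed between BoM and LM2 in opposite directions. RAET1G reached at most 2.26 CPM in BoM shCtrl and passed the filter through LM2 and BrM3, so the filter favoured its difference in this direction.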

How the data were processed

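Stranded mRNA libraries (TruSeq) from 18 cultures were sequenced. Per the labels and the study's methods, the authors aligned reads to hg38 with STAR 2.7.0 and deposited 1 table of raw counts per gene. Base calling used CASAVA 1.8.2 per the submitters' notes. Whether the counting used strand, and how reads matching several genes were counted, is not given in the sources used here. Added spike-in RNA was not analysed here. Columns were matched to samples by line, hairpin and replicate number in the titles, where the code of the control hairpin was read as shCtrl because it is the only other group of each line. A further deposited table of the authors' own comparisons (fold changes and p-values) was not used.

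The counts were tested with edgeR 4.0.16 (R 4.3.3): TMM scaling, the quasi-likelihood test with 6 group means over 18 libraries (12 residual degrees of freedom), and Benjamini-Hochberg adjustment over 12160 genes, with calls at an adjusted p of 0.05. Tests are two-sided. Genes were kept when their highest normalized count exceeded 140, the threshold between 1 and 200 at which replicates agreed most in which genes were above it (mean Jaccard index 0.97). The SE of a log2 fold change was its size divided by the square root of F. Averages over lines weight lines equally. Levels per kilobase used the union of exons in GENCODE release 44, and promoters came from RefSeq GRCh38.p14. The code was tested on simulated data.

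Alternatives were DESeq2 1.42.0, the filterByExpr filter of edgeR (18428 genes kept), no filter beyond 1 count (41236 genes), the replicate number as a block, GC offsets (a loess curve of span 0.5 through log2 CPM, prior count 2), alone or together with that block, each line alone, and each library left out. Replicates are separate cultures at different passages, and p-values measure their spread. Same-numbered shCtrl and shWDR5 libraries deviated together in BoM (r = 0.559, 0.321 and 0.145), and the block is reported beside BoM. In LM2 the values of r were also positive (0.574, 0.0314 and 0.728), and in BrM3 they were 0.543, 0.51 and -0.17. The block in LM2 and BrM3 is reported further below.

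The members and lists were chosen with earlier results of these data known. Named are all members, WDR5, and, of each further list, up to 4 called genes with the smallest p in the averaged comparison and up to 4 with the largest called difference between lines. The 5 genes most like the members were taken by Pearson correlation. Of the interferon-stimulated genes listed, 15 were analysed. Of the leukocyte markers listed, 5 were analysed.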

Additional observations from a re-analysis of the deposited data

How the results depend on the processing

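NLRC5, B2M and TAP2 passed the test for the average of the lines in all 18 fits with a library left out, and only TAP2 lost it under another setting, with no filter (0.19, adjusted p = 0.06). The number of members that rose grew with GC offsets, and with GC offsets plus the replicate block, from 0 to 1 and 3 in LM2, from 0 to 2 and 5 in BrM3, from 2 to 4 and 7 in BoM and from 3 to 7 and 8 in the average. Calls also grew over all tested genes. With GC offsets 1001, 1696, 1863 and 3769 genes rose in LM2, BrM3, BoM and the average. With the block added 1910, 2727, 2872 and 4478 did, where the reported fit had 181, 355, 658 and 1901. In BoM fitted alone 0 members rose, and with single libraries left out 0 to 3 did. With GC offsets, 4 members in place of 2 were higher in BoM than in LM2, and 3 in place of 1 in BoM than in BrM3. Over all tested genes 3733 in place of 3158 and 3123 in place of 2169 were higher in these pairs. The cause was not tested. HLA-C then differed between lines (0.31 for BoM over LM2, 0.55 for BoM over BrM3, -0.24 for BrM3 over LM2). The replicate block by itself added HLA-E to the members that rose in the average (0.16, adjusted p = 0.015) and changed no other call of a member. Same-numbered libraries correlated at 0.574, 0.0314 and 0.728 in LM2 and 0.543, 0.51 and -0.17 in BrM3. With the block 468 genes rose and 975 fell in LM2, against 181 and 584 without it. In BrM3 777 rose and 1533 fell with the block, against 355 and 968. In the average 2701 genes rose and 3012 fell with it, against 1901 and 2417. DESeq2 gave 2394 and 2409.

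Signs that turned mostly belonged to estimates near 0, with the exception of HLA-E between BoM and BrM3, called at -0.3. For HLA-C they were the shWDR5 effect in LM2 with the block (-0.01), in BoM with GC offsets with or without the block (0.09) and in the average likewise (0.03). For HLA-B they were the effect in BrM3 with GC offsets with or without the block (0.01), and in BoM with DESeq2 (0.01), filterByExpr (0.02), no filter (0) and GC offsets with or without the block (0.17, and called with the block at an adjusted p of 0.038). ERAP1 in BrM3 was at 0.01 with DESeq2, 0.04 with filterByExpr or no filter, and 0.02 with GC offsets, with these and the block, or in the line alone. HLA-E was at 0.01 for BrM3 over LM2 with no filter and 0.04 for BoM over BrM3 with GC offsets. Leaving out single libraries moved ERAP1 over 0 to 0.16 in BoM and -0.02 to 0.01 in BrM3, HLA-B over -0.05 to 0.05 in BoM and -0.03 to 0.04 in the average, HLA-C over -0.24 to 0.14 in LM2 and -0.11 to 0.14 for BoM over LM2, HLA-E over -0.11 to 0.08 for BrM3 over LM2, TAP1 over -0.01 to 0.19 in LM2 and TAPBP over -0.05 to 0.2 in BoM. The count of regulators that rose in the average, 7, was 12 with DESeq2 or filterByExpr, 6 with no filter, 15 with the block or GC offsets and 16 with both, and that of peptide supply genes, 2, was 5, 5, 4, 6, 7 and 8 in the same order. Over all tested genes 1901 rose in the average, 2394 with DESeq2 and 2632 of 18428 with filterByExpr. Without a filter 2285 of 41236 rose, with the block 2701, with GC offsets 3769 and with both 4478. With no filter 2 regulators fell in place of 4. The count of class II genes that fell in LM2, 1, was 2 with the block or GC offsets, 3 with both, and 1 to 3 with a library left out. Over all tested genes 584 fell in LM2, 975 with the block or GC offsets and 1462 with both.

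With 3 libraries a group, changes of the size estimated for most members were often not detectable within a line.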
